A study of Equus asinus with 2 samples.

Results

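The cells described here are fetal donkey barcodes that carried RXFP2, the receptor of the peptide hormone INSL3, together with at least 2 of CSMD1, DCC, SNTG1 and PENK. A barcode, the tag of 1 droplet, was taken where it held at least 1500 UMIs (unique molecular identifiers, each standing for 1 captured RNA molecule), at least 1 RXFP2 UMI and at least 1 UMI of 2 or more of the other 4 genes. The rule found 2109 such RXFP2 cells among 20086 barcodes with 1500 UMIs and 23531 in all. Of these, 518 of 8092 barcodes lay in the 4-week library (6.40%, 95% Clopper-Pearson interval 5.88 to 6.96%) and 1591 of 11994 in the 8-week library (13.3%, 12.7 to 13.9%). The cells were chosen by the measured counts of these 5 genes and by no cell class, so the levels of those 5 genes describe the choice and support nothing.

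The series holds 2 single-cell RNA libraries from fetal Equus asinus, the donkey. The 4-week library is labelled as mesonephros together with gonad, and the 8-week library as ovary. Both tissues were digested with collagenase IV and DNase I and captured in droplets, and the labels name neither strain nor number of fetuses. With 1 library per stage there is no replicate, so no difference below has a replicate check, no test was made, and stage, tissue and library cannot be told apart.

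RXFP2 couples to cyclic AMP production, and INSL3 acts through it on the gubernaculum, the mesenchymal ligament that anchors the fetal testis during its descent. PENK encodes proenkephalin, the precursor of the enkephalin opioid peptides. DCC is a receptor for the guidance cue netrin, SNTG1 is a syntrophin of the dystrophin complex, and CSMD1 is a large membrane protein with complement-control domains. The coelomic epithelium covers the gonadal ridge, and cells that leave it contribute to the gonadal mesenchyme and supporting cells.

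The libraries held 122341903 and 155128130 UMIs in 8938 and 14593 barcodes. The 8-week library went against its label: 1149 of its barcodes fell in Sertoli-like clusters and 550 in a steroidogenic-like one, with AMH and INSL3, products of the fetal testis, so it is called the 8-week library below. Of the barcode sequences, 38 occurred in both libraries, 9 of them were those of RXFP2 cells, and 0 were held by RXFP2 cells of both. RXFP2 cells had a median of 11872 UMIs and 4487 genes at 4 weeks against 8529 and 3347.5 in the other barcodes, and 13344 and 4745 against 7012 and 2971 at 8 weeks. Since a deeper barcode meets the rule more easily, each barcode was also thinned at random to 1500 UMIs: the rule then found 86 (1.06%, 0.851 to 1.31%) and 284 (2.37%, 2.1 to 2.66%). Levels below are UMIs summed over barcodes and scaled to counts per 1000000 UMIs (CPM), and ratios, shares and levels have 95% intervals that cover counting error only.

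RXFP2 itself was thin in these cells. Their median was 2 UMIs at both stages, 194 and 616 cells held only 1 UMI, and 220 (42.5%) and 611 (38.4%) held 3 or more, up to 23 and 32. Summed RXFP2 was 181 CPM in the chosen cells against 3.57 in the other barcodes at 4 weeks, and 141 against 12.9 at 8 weeks. They held 81.3% and 74.9% of each library's RXFP2 UMIs.

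The genes of the second condition differed in how often they were met. CSMD1 was found in 505 and 1522 of the cells, SNTG1 in 482 and 1266, DCC in 369 and 1133, and PENK in only 91 (17.6%) and 473 (29.7%). The label's PENK therefore described a minority: 427 and 1118 RXFP2 cells had no PENK UMI. PENK stood at 34.5 CPM against 6.12 at 4 weeks and at 79.6 against 13.2 at 8 weeks. The cells held 32.6% of the PENK UMIs of the 4-week library and 62.2% of those of the 8-week library. CSMD1 stood at 1261 against 55.3 CPM and 537 against 103, and DCC at 269 against 9.42 and 114 against 17.6.

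Free RNA in droplets can give single UMIs of any gene, so the share with an RXFP2 UMI was set beside endothelial-like barcodes after thinning to 1500 UMIs. RXFP2 was found in 9.80% (8.37 to 11.4%) of stroma-like barcodes at 4 weeks against 0.411% of endothelial-like ones, whose untouched median depths were 8546 and 7819 UMIs. At 8 weeks the shares were 13.2% (12.3 to 14.2%) and 2.26%, with median depths of 6693 and 6885.5. Both stroma-like shares were above the endothelial-like share at the same depth. At 8 weeks the share was 17.3% (8.23 to 30.3%) in coelomic epithelium-like barcodes and 4.79% in barcodes of unnamed clusters. The part of free RNA in the choice of the cells was not tested.

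Most RXFP2 cells fell among stroma-like cells. Clusters were built from all barcodes with the 5 rule genes left out, and a cluster was named only where enough markers of a list stood out. Clusters named stroma-like held 436 of 518 RXFP2 cells at 4 weeks (84.2%, 80.7 to 87.2%) and 1238 of 1591 at 8 weeks (77.8%, 75.7 to 79.8%). RXFP2 cells in turn made up 27.7% and 24.3% of stroma-like barcodes. Cluster 9, led by MSC, LUM and DCN, took no name, since 28.6% of the stroma list stood out in it and 33.3% was asked for. It is not among the stroma-like barcodes, and it held 2 RXFP2 cells of 92 barcodes (2.17%) at 4 weeks and 7 of 1621 (0.432%) at 8 weeks. The stroma-like barcodes lay in clusters 0, 2, 3, 8 and 15 in both libraries, but most of the 4-week ones were in clusters 15 (499) and 3 (427) and most of the 8-week ones in clusters 2 (1503), 3 (1429) and 0 (1379).

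Cluster 3 held the largest share. It took 297 RXFP2 cells at 4 weeks, 57.3% of all and 69.6% (64.9 to 73.9%) of the cluster, and 728 at 8 weeks, 45.8% of all and 50.9% (48.3 to 53.6%) of the cluster. Its leading genes included NCAM2, PCDH15, SGCZ and TENM1 beside the 5 rule genes, although those 5 were not used to build it. Cluster 2, led by the growth factor gene NRG1 and the sorting receptor gene SORCS3, held 59 (20.1% of the cluster) and 101 (6.72%). Cluster 0, led by the cell-division genes UBE2C and MKI67, held 58 (18.0%) and 153 (11.1%). Cluster 8 held 11 of 30 barcodes at 4 weeks and 254 of 723 (35.1%, 31.6 to 38.7%) at 8 weeks. Cluster 15, with 499 barcodes at 4 weeks, held 11 RXFP2 cells (2.20%).

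Few RXFP2 cells fell in an epithelial cluster. The cluster named coelomic epithelium-like held 3 of 4 barcodes at 4 weeks and 24 of 52 (46.2%, 32.2 to 60.5%) at 8 weeks, which is 0.579% and 1.51% of RXFP2 cells. Sertoli-like clusters held 2.51% and 4.34% of them, steroidogenic-like 0.965% and 2.89%, endothelial-like 2.70% and 1.57%, germ-like 0.965% and 1.76%, and macrophage-like 0.386% and 1.70%. Clusters without a name held 5.21% and 8.36%. At 8 weeks the RXFP2 cells of the coelomic epithelium-like cluster had a median of 38698 UMIs, against 15638.5 in the whole cluster. In Sertoli-like cluster 17 the medians were 37571 and 22311, and in cluster 3 8438.5 and 6022. In endothelial-like cluster 27 the order turned, at 4579 and 5759. The part of depth in these shares was not tested. After thinning, 95.3% and 91.2% of the RXFP2 cells were in stroma-like clusters and 77.9% and 57.7% in cluster 3. No doublet caller gave usable calls, and 51 (9.85%) and 185 (11.6%) RXFP2 cells were among the top 6% of doublet scores of their library.

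**Figure D1:**
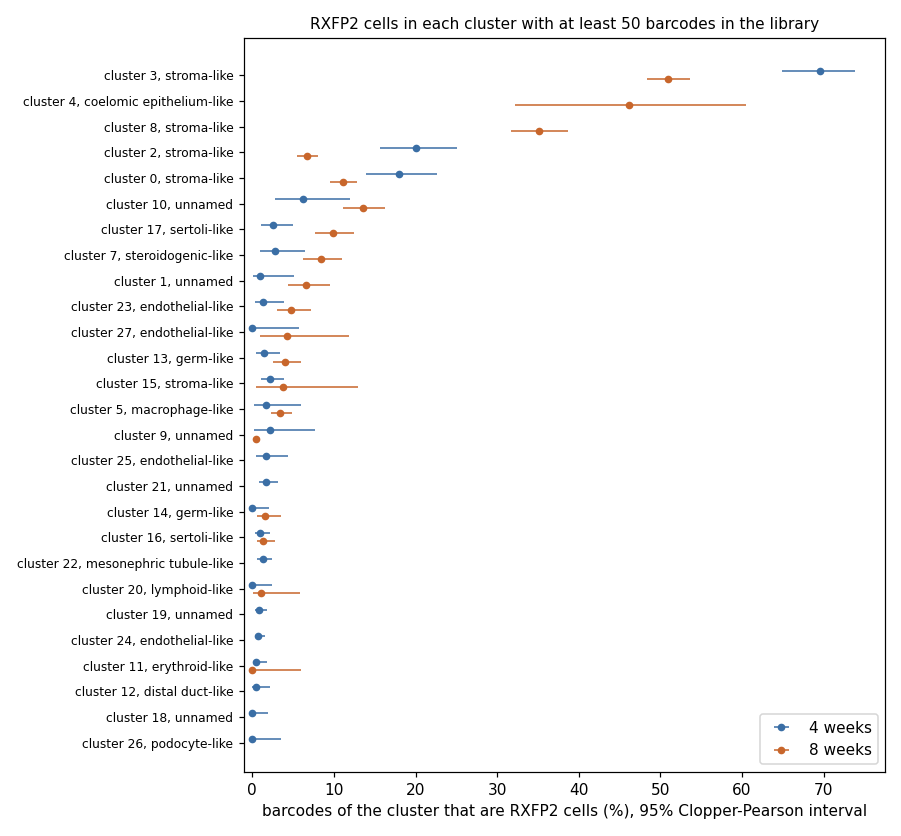
Share of each cluster's barcodes that were RXFP2 cells (x axis, percent), for clusters with at least 50 barcodes in a library. Points are shares, bars 95% Clopper-Pearson intervals, blue 4 weeks and orange 8 weeks. Cluster 3 stands highest in both libraries, at 69.6% and 50.9%, and the coelomic epithelium-like cluster 4 at 46.2% has a wide interval because it holds 52 barcodes.

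Most genes of fibroblast-like stroma were higher in RXFP2 cells than in the rest of the library at 4 weeks, and 3 were at 8 weeks. A gene is called higher or lower where the ratio is at least 2-fold, its interval leaves out 1 and the 2 groups hold at least 10 UMIs. Of 21 stroma genes, 17 were higher and 0 lower at 4 weeks (median log2 ratio 1.86, all genes -0.08), where 6.75% of 24687 genes were called higher and 12.5% lower. At 8 weeks 3 were higher and 0 lower (median 0.62, all genes -0.04), with 2.84% of 24212 genes called higher and 10.2% lower. The genes called at 8 weeks were POSTN, TCF21 and OGN. The other barcodes differed between the libraries: their summed level of the 21 genes was 2358 CPM at 4 weeks and 7163 at 8 weeks, while that of RXFP2 cells was 6908 and 10375.

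PDGFRA, the receptor of platelet-derived growth factor on mesenchyme, stood at 252 (242 to 262) CPM in RXFP2 cells and 35.6 in the other barcodes at 4 weeks, 7.07-fold (6.72 to 7.44) apart. At 8 weeks it stood at 271 (265 to 277) against 162, a ratio of 1.67 (1.63 to 1.72) and under the 2-fold line. COL1A1, a chain of fibrillar collagen I, was 1087 against 218 CPM at 4 weeks and 1595 against 832 at 8 weeks. PDGFRA in RXFP2 cells thus changed less between the libraries than in the others. DCN, the matrix proteoglycan decorin, was 837 against 184 and 1621 against 1213.

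TCF21, a transcription factor of gonadal and kidney mesenchyme, was higher at both stages: 62.2 against 17.1 CPM, 3.63-fold (3.31 to 3.99), and 93.5 against 43.1, 2.17-fold (2.08 to 2.27). POSTN, the matrix protein periostin, was 54.8 against 20.4, 2.68-fold (2.44 to 2.95), and 84.6 against 29.2, 2.9-fold (2.75 to 3.04). MSC, a basic helix-loop-helix factor, was low at 4 weeks, 3.54 against 1.76 CPM, and 51.5 against 73.6 at 8 weeks, where the others stood above the RXFP2 cells. After thinning to 1500 UMIs, COL1A1 was seen in 81.7% and 85.4% of RXFP2 cells against 5.54% and 23.5% of endothelial-like barcodes. PDGFRA was seen in 38.2% and 34.9% against 1.25% and 5.92%, and without thinning in 88.4% and 85.4% against 7.2% and 20.7%.

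The coelomic-epithelial list was split. Of 21 genes measured, 8 were higher and 6 lower in RXFP2 cells at each stage (median log2 ratio 0.51 and 0.02). KRT19, UPK3B, UPK1B, BNC1, LHX9, EMX2 and ALDH1A2 were higher at both stages, with GATA4 as the eighth at 4 weeks and LRRN4 at 8 weeks. KRT8, ALDH1A1, CDH1, EPCAM and CLDN1 were lower at both, with PODXL as the sixth at 4 weeks and KRT7 at 8 weeks. The higher genes include transcription factors of the gonadal ridge, and the lower ones the genes of epithelial junctions.

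LHX9, a homeobox factor needed for gonad formation, stood at 265 (255 to 276) CPM against 18.7 at 4 weeks, 14.1-fold (13.3 to 15), and at 171 (167 to 176) against 77.2 at 8 weeks, 2.22-fold (2.15 to 2.3). KRT19, a keratin of simple epithelia, stood at 263 (253 to 273) against 56.6, 4.65-fold (4.44 to 4.87), and at 200.4 (196 to 205) against 60.4, 3.32-fold (3.21 to 3.43). ALDH1A2, which makes retinoic acid, was 499 against 67.2 and 381 against 187. These 3 genes were at 6.25, 7.7 and 18.4 CPM in endothelial-like barcodes at 4 weeks and at 16.6, 16.8 and 52.7 at 8 weeks, far under the RXFP2 cells.

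Mesothelial genes were higher but scarce. UPK3B, a uroplakin of mesothelium, was 3.33 against 0.643 CPM at 4 weeks and 4.33 against 0.86 at 8 weeks, and BNC1, a zinc finger factor of epithelia, 6.24 against 1.39 and 2.47 against 1.1. Epithelial adhesion genes went the other way. EPCAM was 13.2 against 60.4, 4.57-fold (3.84 to 5.5) lower, and 8.23 against 31.9, 3.87-fold (3.42 to 4.4) lower. CDH1, the epithelial cadherin, was 7.8 against 40.4 and 3.08 against 12. KRT8, the keratin of simple epithelia that pairs with KRT18, was 142 against 301 and 58.4 against 123.

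After thinning, LHX9 was seen in 32.2% and 24.8% of RXFP2 cells, 17% and 18.1% of the other stroma-like barcodes, and 1.11% and 1.97% of endothelial-like ones. KRT19 was seen in 35.7% and 29.5%, 13.9% and 16.2%, and 1.18% and 2.76%. Without thinning the KRT19 shares were 83% and 72.5%, 44.8% and 44.8%, and 6.99% and 13.6%. The order of the 3 groups was the same for both genes at both stages.

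**Figure D2:**
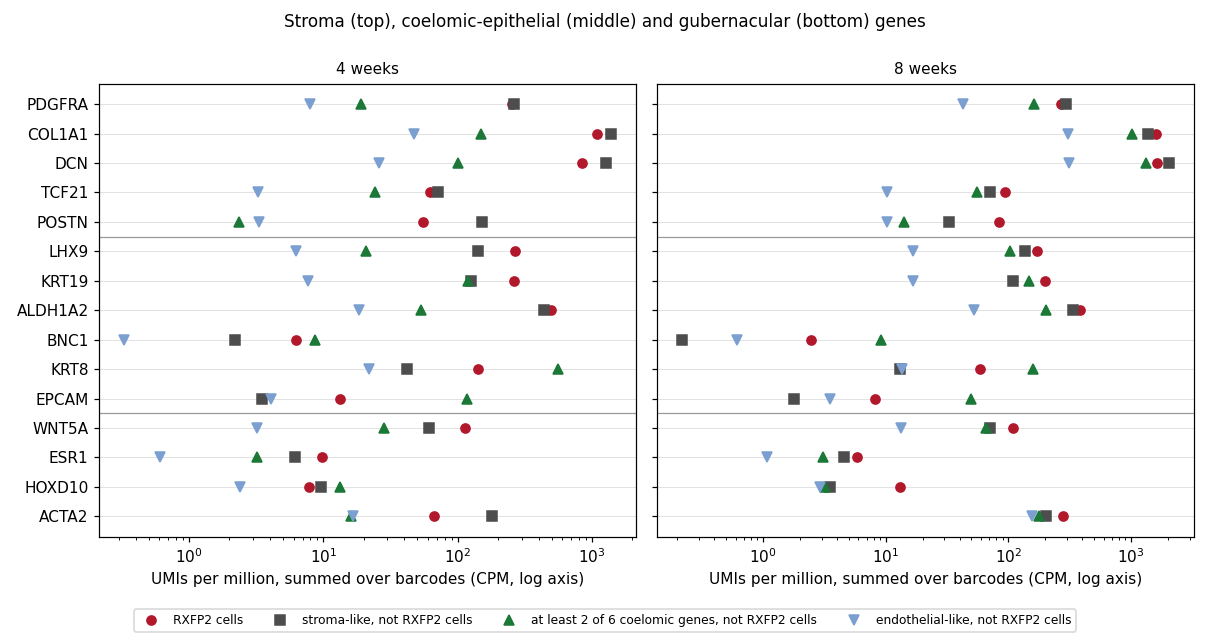
Summed levels (x axis, CPM, log scale) of stroma genes (top block), coelomic-epithelial genes (middle) and gubernaculum-list genes (bottom) at 4 and 8 weeks. Red circles are RXFP2 cells, grey squares the other stroma-like barcodes, green triangles barcodes with at least 2 of 6 coelomic genes, blue triangles endothelial-like barcodes. For KRT8 and EPCAM the red circles lie between grey and green, and for LHX9 they lie to the right of all others. The green set also carried podocyte and mesonephric tubule markers at 4 weeks.

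The gubernaculum list did not move as a block. Of 23 genes measured 4 were higher and 9 lower at 4 weeks (median log2 ratio -0.30), and 4 higher and 4 lower at 8 weeks (median 0.11). WNT5A and ESR1 were higher at both stages, EPHA7 and ISL1 at 4 weeks, and HOXA10 and HOXD10 at 8 weeks. The lower genes included INSL3 at both stages, HOXA10 and HOXD10 at 4 weeks, and ISL1 at 8 weeks. Other lower members are not named here. WNT5A, a secreted WNT ligand, stood at 113 (107 to 120.2) CPM against 23, 4.93-fold (4.59 to 5.29), and 109.6 (106 to 113) against 50.6, 2.17-fold (2.08 to 2.26). ESR1, the estrogen receptor alpha, stood at 9.78 against 2.21, 4.43-fold (3.46 to 5.64), and 5.79 against 2.89, 2.01-fold (1.67 to 2.4).

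HOXD10 and HOXA10 of this list, HOX genes that pattern the hind part of the body axis, were lower at 4 weeks and higher at 8 weeks. HOXD10 was 7.8 CPM against 16.3 at 4 weeks, 2.09-fold (1.66 to 2.67) lower, and 13.1 against 3.36 at 8 weeks, 3.9-fold (3.39 to 4.48) higher. HOXA10 was 3.54 against 16.1 and 0.762 against 0.326, under 1 CPM in both groups at 8 weeks. The 4-week others contained 762 mesonephric tubule-like barcodes and the 8-week library 0, and the part of that difference in the HOX ratios was not tested. Genes of skeletal muscle precursors, which the gubernaculum also holds, were at or near 0: MYF5 and MYOD1 had 0 UMIs at 4 weeks, which allows up to 0.312 CPM, and both were at 0.061 CPM at 8 weeks. ACTA2, smooth muscle actin, was 66.3 against 38.9 at 4 weeks and 279.7 against 267 at 8 weeks, and not called at either.

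**Figure D3:**
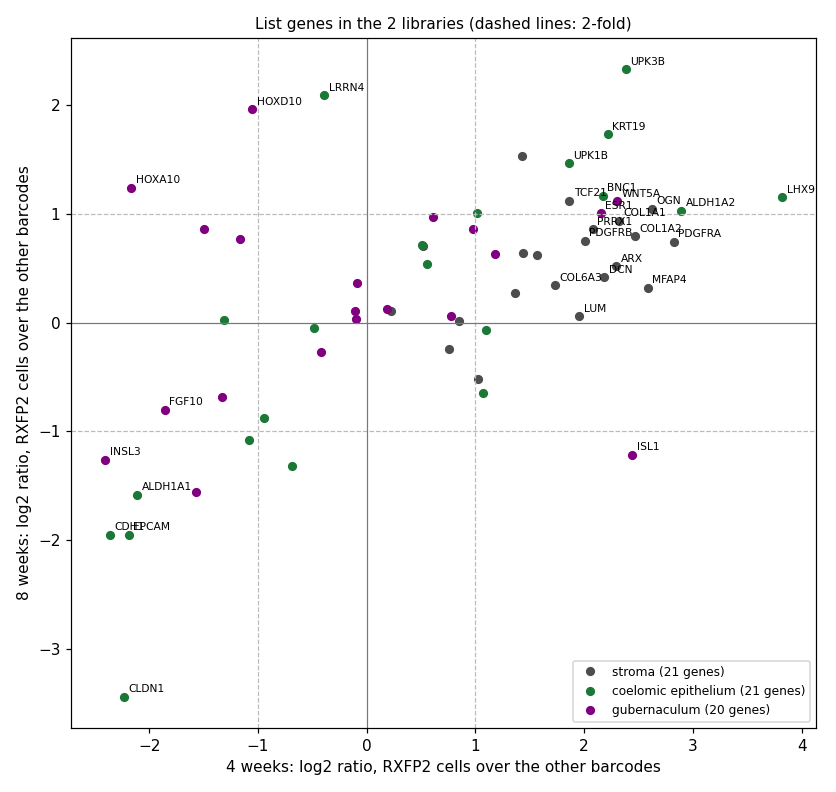
Log2 ratio of RXFP2 cells over the other barcodes at 4 weeks (x axis) and 8 weeks (y axis), 1 point per gene, for the stroma (grey), coelomic epithelium (green) and gubernaculum (purple) lists. Dashed lines mark 2-fold. Grey points lie right of 0 and mostly under the upper dashed line, green points fall in both the upper right and the lower left, and ISL1, HOXA10 and HOXD10 lie in the corners of opposite sign.

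The ligand of the receptor was lower in these cells than in the rest of each library. INSL3 stood at 0.936 CPM against 5.23 at 4 weeks, 5.58-fold (2.92 to 12.3) lower, and at 87.2 against 209 at 8 weeks, 2.4-fold (2.31 to 2.49) lower. At 8 weeks RXFP2 cells of cluster 3 held 7.8 CPM of INSL3 and endothelial-like barcodes 9.22. Of 29 genes of relaxin-family signalling measured, INSL3 included, 3 were higher and 3 lower at 4 weeks, and 1 higher and 2 lower at 8 weeks, shares near those of all genes. ADCY8, an adenylyl cyclase, was higher at both, 146 against 23.9 CPM, 6.1-fold (5.72 to 6.51), and 107 against 45.6, 2.35-fold (2.25 to 2.45). PDE3A, a phosphodiesterase that degrades cyclic AMP, was 466 against 149.99, 3.11-fold (3 to 3.21), and 391 against 231, not called. PDE4B, another such enzyme, was lower at both, 33.1 against 119 and 15.6 against 35.8.

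Of 12 other opioid genes measured, the list of peptide precursors, receptors and processing enzymes, 0 were higher and 1 lower at 4 weeks and 1 higher and 3 lower at 8 weeks. The higher gene, the prodynorphin gene PDYN, was at 0.274 CPM against 0.0584. The prohormone-processing gene PCSK2 was 3.02 against 2.77 and 0.518 against 1.18, and OPRM1, the mu opioid receptor, had 0 UMIs at 4 weeks.

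Guidance genes other than DCC were more often higher than lower. Of the netrin and axon-guidance genes, 8 were higher and 4 lower of 32 at 4 weeks (median log2 ratio 0.57), and 5 higher and 2 lower of 30 at 8 weeks (median 0.45). NTNG1, the membrane-anchored netrin-G1, was 474 against 86.2 CPM, 5.5-fold (5.31 to 5.7), and 722 against 355, 2.04-fold (2 to 2.07). UNC5D, a netrin receptor, was 80.3 against 12.3, 6.53-fold (5.97 to 7.13), and 75.6 against 33.1, 2.29-fold (2.17 to 2.4). EPHB1, an ephrin receptor, was 73.2 against 19 and 55.6 against 19.7, and the secreted guidance gene SEMA3D 38.2 against 14.7 and 18 against 8, both higher at both stages. The soluble netrin NTN4 was lower at both, 4.26 against 12.4 and 2.07 against 5.68. PLXNA4, a semaphorin receptor subunit, was 107 against 71.2, not called, at 4 weeks and 31.2 against 5.19, 6.02-fold (5.44 to 6.66), at 8 weeks.

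In the dystrophin complex, to which SNTG1 belongs, 5 of 19 genes were higher and 2 lower at 4 weeks and 2 higher and 0 lower at 8 weeks. SGCZ, zeta-sarcoglycan, was 813 against 66.8 CPM, 12.2-fold (11.8 to 12.6), and 351 against 119.8, 2.93-fold (2.86 to 3). SGCD, delta-sarcoglycan, was 179.6 against 56.8, 3.16-fold (3 to 3.34), and 103 against 60.8, not called. DMD, dystrophin itself, was 81.6 against 196, 2.4-fold (2.23 to 2.58) lower, and 50.6 against 55.2, not called.

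R-spondins, which enhance WNT signalling, were among the higher signalling genes. Of the WNT list 10 of 36 genes were higher and 5 lower at 4 weeks (median -0.11), and 8 of 34 higher and 3 lower at 8 weeks (median 0.27). RSPO2, active in limb and lung mesenchyme, was 3.54 against 0.357 CPM, 9.89-fold (6.07 to 16), and 16.7 against 2.76, 6.06-fold (5.28 to 6.96). RSPO1, the R-spondin of ovarian differentiation, was 9.36 against 4.55, 2.06-fold (1.63 to 2.58), and 4.48 against 0.993, 4.51-fold (3.52 to 5.79). RSPO3 was 14.2 against 15.3, not called, at 4 weeks and 58.4 against 10.7, 5.44-fold (5.07 to 5.84), at 8 weeks. The secreted inhibitor gene DKK2 was lower at 4 weeks, 1.04 against 2.87, and higher at 8 weeks, 13 against 3.51. WNT6 was lower at both, 4.37 against 23.9 and 11.2 against 35.9.

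Of 30 BMP and TGF-beta genes, 2 were higher and 9 lower at 4 weeks, and 2 higher and 5 lower at 8 weeks. GDF10, a BMP-family ligand, was higher at both at low levels, 2.18 against 0.134 CPM and 2.84 against 0.768. BMP2, BMPR1B, CHRDL1, INHBB and FST were lower at both, FST, the activin-binding protein follistatin, at 3.54 against 12.7 and 4.54 against 15.4. Among 19 steroid and retinoid receptor genes at 4 weeks and 18 at 8 weeks, 3 were higher at each stage, and 3 and 2 lower. NR3C2, the mineralocorticoid receptor, was 96.5 against 40.5 and 52 against 25.9, higher at both. NR4A1, an immediate-early orphan receptor, was 383 against 229.6, not called, and 368 against 161, 2.29-fold (2.23 to 2.34).

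HOX genes were lower at 4 weeks as a group: 21 of 34 were lower and 4 higher (median -1.48), against 0 lower and 5 higher of 32 at 8 weeks (median 0.45). The 4 higher ones at 4 weeks were HOXC6, HOXC8, HOXD4 and HOXD9, with HOXD9 at 67 against 20.3 CPM and HOXC6 at 33.1 against 15.5. HOXC8 was higher at both stages, 17.5 against 7.88 and 15.3 against 6.85. HOXB9, at 4.47 against 24.4, was among the lower ones at 4 weeks, and at 0.061 against 0.159 at 8 weeks it was near 0 in both groups.

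Matrix genes were higher at 4 weeks in 16 of 40 and lower in 5 (median 0.78), and higher in 6 and lower in 2 at 8 weeks (median 0.45). Against the other stroma-like barcodes alone the 4-week direction turned, with 1 of 40 higher and 8 lower (median -0.45), and at 8 weeks 5 of 39 were higher and 2 lower (median 0.09). TNC, the matrix glycoprotein tenascin C, was 63 against 8.79 CPM, 7.17-fold (6.47 to 7.94), and 47.7 against 10.6, 4.52-fold (4.19 to 4.87). COL12A1, a fibril-associated collagen, was 65.4 against 34.6, not called, and 121 against 39.8, 3.03-fold (2.91 to 3.16). COL15A1, a basement-membrane collagen, was lower at both, 5.41 against 31.6 and 11.1 against 32.5.

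Across all genes at 100 CPM or more in the higher group, 227 (9.45% of 2401) were higher in RXFP2 cells at 4 weeks and 115 (4.79%) lower. At 8 weeks 47 (2.27% of 2066) were higher and 42 (2.03%) lower. Of the higher genes 35 were shared, 15.4% of the 4-week and 74.5% of the 8-week ones, and of the lower genes 23, 20% and 54.8%. Of these genes 0 were called in opposite directions.

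The genes highest by ratio at 4 weeks included HTR2C, NCAM2, SMOC2, GRIN2A, LHX9, PCDH15, SGCZ, TNNI1, COL6A6, ABCA9 and CNTNAP4. HTR2C, a serotonin receptor, was 136 against 5.38 CPM, 25.3-fold (23 to 27.9). NCAM2, a neural cell adhesion molecule, was 1019 against 59.5, 17.1-fold (16.6 to 17.7). SMOC2, a calcium-binding matrix protein, was 100.04 against 6.28, 15.9-fold (14.4 to 17.6). The other genes named lay between 15.0-fold for GRIN2A, an NMDA receptor subunit, and 10.3-fold for CNTNAP4, a contactin-associated protein.

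At 8 weeks the highest included PCDH15, KRT19, CDH13, NFATC2, COL12A1, TPD52L1, SGCZ, CCDC80, NCAM2, CXCL12 and GRIN2A, with smaller ratios. PCDH15, a protocadherin, was 498 against 144 CPM, 3.45-fold (3.38 to 3.52). CXCL12, a chemokine of stromal cells, was 662 against 240.00, 2.76-fold (2.71 to 2.81). The smallest ratio among them was that of GRIN2A at 2.62-fold.

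The lowest genes included known products of endothelium and macrophages. At 4 weeks AFP, APOC2, S100G, PLVAP, TOX, DCDC2, KDR, HBA1, VAV3, EGFL7 and PDZK1IP1 were 5.93 to 4.5-fold lower. They include endothelial PLVAP and the VEGF receptor gene KDR, at 22.5 against 108 CPM. At 8 weeks CCL4, C1QB, C1QA, FABP3, CST3, SPP1, CYP17A1, APOA1, CITED1, AQP8, CCK and B2M were 6.50 to 3.08-fold lower. They include the complement genes C1QA and C1QB of macrophages and CYP17A1 of steroidogenesis, at 266 against 1045. With only stroma-like barcodes on both sides, 4 of these at 4 weeks and 8 at 8 weeks had ratios above 1.

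Markers of other cell types were mostly lower in RXFP2 cells, and few were at 0: CD163 at 4 weeks and CD3D and GZMA at both stages were among them. Endothelial markers were lower in 11 of 12 at 4 weeks and 7 of 12 at 8 weeks, with summed levels of 295 and 151 CPM in RXFP2 cells, 1209 and 330 in the other barcodes and 5511 and 4400 in endothelial-like ones. Macrophage markers were lower in 10 of 11 at both stages, germ cell markers in 10 and 11 of 13, Sertoli markers in 7 and 8 of 13 with 2 and 0 higher, and steroidogenic markers in 7 and 8 of 10. The germ cell markers summed to 91.9 and 94.2 CPM against 313 and 308 in the other barcodes, the Sertoli markers to 455 and 759.6 against 775 and 1114, and the steroidogenic markers to 558 and 761 against 1384 and 2219. RNA of these marker genes was thus present at reduced levels. At 8 weeks 69 RXFP2 cells lay in Sertoli-like clusters and 46 in the steroidogenic-like one. The parts of such cells, of doublets and of free RNA in these sums were not tested. Mesonephric tubule markers were lower in 12 of 12 at 4 weeks and 1 of 11 at 8 weeks. Distal duct markers were lower in 9 of 11 and 0 of 10, with 1 and 2 higher, podocyte markers in 6 and 1 of 10, with 1 and 2 higher, and pregranulosa markers in 4 and 5 of 10, with 1 higher at each stage. Blood cell markers were lower in 7 of 9 and 8 of 10 for lymphoid and 9 and 7 of 9 for erythroid genes.

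Contractile and neural lists did not share 1 direction. Of 12 smooth muscle genes 1 was higher at 4 weeks, DES, and 0 at 8 weeks. Of 10 pericyte genes 5 were higher and 5 lower at 4 weeks and 2 lower at 8 weeks. Neural genes were higher in 3 and lower in 4 of 13 at 4 weeks and higher in 1 and lower in 4 of 14 at 8 weeks, and Schwann cell genes were lower in 5 of 9 and 4 of 10, with 0 and 1 higher. Of 5 and 6 skeletal muscle genes measured 2 and 0 were higher and 1 and 2 lower. Chromaffin genes were higher in 2 and lower in 3 of 10 at 4 weeks and higher in 2 and lower in 0 of 9 at 8 weeks. The higher ones were SCG2 and HAND2. HAND2, also a mesenchymal factor of limb and heart, was 91.6 against 4.43 CPM, 20.7-fold (18.5 to 23.1), and 26.1 against 7.27, 3.59-fold (3.26 to 3.94).

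Of 20 S-phase, 19 G2/M and 14 dissociation stress genes 0 were called against the rest of the library at either stage. The median log2 ratios at 4 and 8 weeks were 0.03 and -0.19 for S phase, 0.07 and -0.29 for G2/M and 0.04 and 0.18 for stress. Against other stroma-like barcodes 0 of these genes were called at 4 weeks, with medians of -0.29, -0.56 and 0.13. At 8 weeks 3 of 19 G2/M genes were lower (median -0.94), 0 with cluster 9 added to the stroma on both sides, and 1 of 14 stress genes, ATF3, was higher (median 0.68), while the S-phase median was -0.31.

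Genes that span long stretches of genome, as CSMD1, DCC and SNTG1 do, were more often higher than lower at 4 weeks and split at 8 weeks: of 38, 17 were higher and 4 lower at 4 weeks and 7 higher and 6 lower at 8 weeks. Their summed level was 13049 against 5682 CPM at 4 weeks and 10591 against 6533 at 8 weeks. The other stroma-like barcodes held 10587 and 10579, but the sums of RXFP2 cells cover cells of all classes, so the 2 are not like sets. At 8 weeks RXFP2 cells of stroma-like clusters 0, 2, 3 and 8 held 9397, 10835, 11575 and 17605 CPM. Those of unnamed cluster 10 held 9116 and those of Sertoli-like cluster 17 6956. The part of gene length in the choice of the cells was not tested.

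Against other stroma-like barcodes, few stroma genes were called, most of them lower, and the called coelomic genes were mostly higher. In that comparison 3.88% of 17921 genes were called higher and 2.83% lower at 4 weeks, and 3.15% of 20623 higher and 1.15% lower at 8 weeks. Of 21 stroma genes 0 were higher and 3 lower at 4 weeks, POSTN, MSC and PTCH1 (median -0.12), and 1 higher and 1 lower at 8 weeks (median 0.05). Of the coelomic genes 5 of 21 were higher and 0 lower at 4 weeks (median 0.73), and 4 of 20 higher and 1 lower at 8 weeks (median 0.47). With cluster 9 added on both sides these counts were the same at 4 weeks, and at 8 weeks 1 stroma gene was higher and 1 lower, and 6 of 20 coelomic genes higher and 0 lower. KRT19 was 311 against 125 CPM, a ratio of 2.48 (2.32 to 2.66), and 228 against 108, a ratio of 2.1 (2.02 to 2.19). LHX9 was 316 against 141, a ratio of 2.24 (2.1 to 2.39), and 191 against 137, a ratio of 1.39 (1.34 to 1.45) and not called.

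Among stroma, POSTN turned: it was lower at 4 weeks, 67.6 against 151 CPM, and higher at 8 weeks, 88.4 against 32.7. MSC was lower at both, 3.78 against 12.2 and 54.8 against 121. RSPO3 was 71.5 against 16.2 at 8 weeks, a ratio of 4.41 (4.03 to 4.84), and PLXNA4 29.96 against 6.88, a ratio of 4.35 (3.78 to 5.02). HAND2 was higher at both, with ratios of 3.89 (3.41 to 4.44) and 2.54 (2.23 to 2.9). ACTA2 was lower at 4 weeks, 81.4 against 179.6, a ratio of 0.453 (0.412 to 0.498), and not called at 8 weeks, 187 against 202. At 100 CPM or more, 56 of 2249 genes (2.49%) were higher and 17 (0.756%) lower at 4 weeks, and 24 of 2070 (1.16%) higher and 7 (0.338%) lower at 8 weeks. HOX genes stayed lower at 4 weeks, 11 of 30, with 0 higher, and 2 of 27 were higher at 8 weeks with 0 lower. The gubernaculum list had 2 higher and 7 lower of 20 at 4 weeks and 3 higher and 0 lower of 18 at 8 weeks. With cluster 9 added on both sides, ISL1 and WNT5A were the higher ones at 4 weeks. The lower ones were then ACTA2, BMP5, HOXA10, HOXA11, HOXC10, HOXD11 and TBX18. Smooth muscle genes were lower in 4 of 12 with 0 higher at 4 weeks, and 1 of 12 was higher at 8 weeks. Netrin and guidance genes were higher in 2 and lower in 1 of 29, then higher in 4 and lower in 0 of 29, WNT genes higher in 3 and lower in 2 of 33, then higher in 6 and lower in 1 of 32. Long genes were higher in 10 and 4 of 38, with 0 lower at either stage. Germ cell and erythroid markers, lower against the library, were higher among stroma at 4 weeks in 4 of 11 and 2 of 6, with 0 lower, and 0 of 13 and 0 of 5 were called at 8 weeks.

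Within cluster 3, few genes other than the rule genes differed between RXFP2 cells and the other barcodes. The cluster was built by likeness of expression, which limits such differences beforehand. Its other barcodes also carried rule genes, RXFP2 at 33.5 and 95.2 CPM and CSMD1 at 1167 and 647 at 4 and 8 weeks. The part of depth in this contrast was not tested. The 5 rule genes are left out of this count and of all others of called genes. At 100 CPM or more, 5 of 2188 genes (0.229%) were higher and 5 (0.229%) lower at 4 weeks, and 4 of 1975 (0.203%) higher and 0 lower at 8 weeks. The higher ones with a symbol were PLXNA4, NR4A3, GRM7 and CENPF at 4 weeks and NR4A2, UBE2C and CENPF at 8 weeks, of which CENPF and UBE2C act in cell division, and the lower ones at 4 weeks INPP4B, SLIT2, CTNNA2, CRIP1 and DACH1, all named after their values were seen. LHX9 was 363 against 256 CPM at 4 weeks, a ratio of 1.42 (1.25 to 1.61), and 221 against 185 at 8 weeks, 1.2 (1.1 to 1.3). KRT19 was 355 against 361, a ratio of 0.985 (0.884 to 1.1), and 335 against 317, 1.06 (0.991 to 1.13). UPK3B and BNC1, scarce genes, differed more: UPK3B was 4.52 against 16.8 at 4 weeks, a ratio of 0.27 (0.139 to 0.527), and BNC1 8.02 against 15.9, 0.505 (0.282 to 0.938), both under the cluster's other barcodes. At 8 weeks UPK3B was 2.09 against 0.487, 4.28 (1.06 to 37.5), and BNC1 2.9 against 0.487, 5.96 (1.52 to 51.3), both above them on few UMIs.

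Barcodes with RXFP2 just outside the rule carried less LHX9 and more ACTA2 than those just inside. Of 736 and 2436 barcodes with RXFP2 the rule took 70.4% and 65.3%. It left 120 and 321 with 0 of the 4 other genes and 98 and 524 with 1, and of those it took 176 and 637 had exactly 2, 273 and 696 had 3, and 69 and 258 had all 4. At 4 weeks LHX9 was 17.6, 66.1 and 203 CPM with 0, 1 and 2 of the 4, and ACTA2 239, 176 and 61.4. At 8 weeks LHX9 was 81.4, 113 and 143, and ACTA2 855, 486 and 348. HOXD10 was 31.2 with 1 of the 4 and 7.56 with 2 at 4 weeks, and 15.6 and 12.5 at 8 weeks. A further 596 and 1548 barcodes had 2 or more of the 4 and no RXFP2 UMI, with KRT19 at 106 and 114 CPM and AMH at 459.7 and 432.

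**Figure D4:**
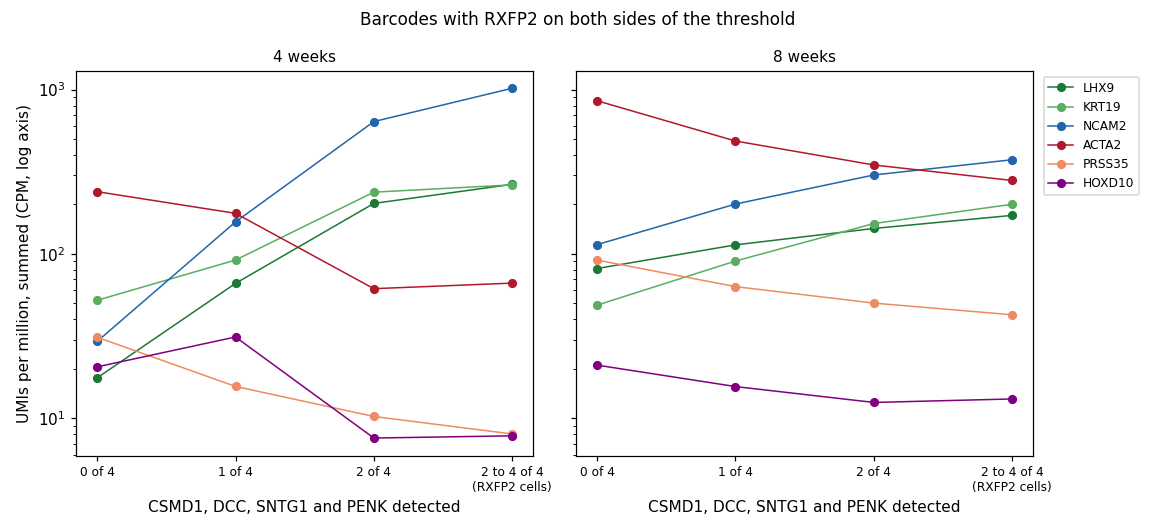
Summed levels (y axis, CPM, log scale) of 6 genes in barcodes with RXFP2, by how many of CSMD1, DCC, SNTG1 and PENK were found (x axis), with all RXFP2 cells as the last point. LHX9, KRT19 and NCAM2 are higher and ACTA2 and PRSS35 lower to the right in both libraries, with ACTA2 at 4 weeks at 61.4 with exactly 2 and 66.3 CPM in all RXFP2 cells.

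RXFP2 cells of different clusters differed in the levels below, a description, since clusters were made from these cells. RXFP2 cells of unnamed cluster 10, led by ARPP21, PI15 and PRSS35, carried ACTA2 at 759.7 CPM, HOXD10 at 37.5 and KRT19 at 54.6, where those of cluster 3 had 189, 20.2 and 335. Those of cluster 17 carried AMH at 1704 CPM and COL1A1 at 863. The rule gene PENK, whose level describes the choice of the cells, was at 8 weeks 180.4 CPM in RXFP2 cells of cluster 3, 61.1 in those of Sertoli-like cluster 17, 28.1 in cluster 0, 14.6 in cluster 10, 12.3 in cluster 2 and 5.35 in cluster 8. At 4 weeks it was 57.6, 2.75 and 3.5 in clusters 3, 0 and 2.

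RXFP2 cells with PENK were deeper than those without, with medians of 20573 against 10349 UMIs at 4 weeks and 22781 against 10196 at 8 weeks, and the part of depth in what follows was not tested. At 8 weeks UPK3B was 8.58 against 1.44 CPM, BNC1 4.59 against 1.03, and KRT19 232 against 179, so all 3 stood higher with PENK. At 4 weeks UPK3B was 2.6 against 3.61, KRT8 219.6 against 112, and KRT19 285 against 255. NRG1, the growth factor neuregulin 1, was lower with PENK at both, 50.2 against 109 and 184 against 283.

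Other ways of picking barcodes, by stroma or surface-epithelial genes, overlapped with these cells in part. Barcodes with MSC and DCN numbered 193 at 4 weeks and 4054 at 8 weeks, and 31 (16.1% of them, 5.98% of RXFP2 cells) and 602 (14.8%, 37.8%) were RXFP2 cells. Those with PI15 and PRSS35 numbered 68 and 832, of which 2 (2.94% of them, 0.386% of RXFP2 cells) and 215 (25.8%, 13.5%) were RXFP2 cells. Those with at least 2 of UPK3B, UPK1B, KRT19, MSLN, LRRN4 and BNC1 numbered 400 and 479, of which 89 (22.3%, 17.2%) and 175 (36.5%, 11%) were RXFP2 cells. Without the RXFP2 cells, the coelomic set carried KRT8 at 560.00 and 159 CPM, EPCAM at 118 and 49.2, and LHX9 at 20.9 and 102. RXFP2 cells had less KRT8 and EPCAM than that set and more LHX9. That set was mixed. At 4 weeks its podocyte markers summed to 1257 CPM against 428 in the other barcodes. Its tubule markers summed to 977 against 702 and its distal duct markers to 517 against 333. At 8 weeks its Sertoli markers summed to 1259 CPM, against 759.6 in RXFP2 cells and 1114 in the other barcodes. The part of such cells in the contrast was not tested.

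Between the stages, RXFP2 cells of the 8-week library held higher levels of some smooth muscle genes and lower levels of some coelomic and guidance genes than those of the 4-week library. At 100 CPM or more, 95 genes (4.02% of 2361) were higher at 8 weeks and 98 (4.15%) lower. Over all genes with at least 10 UMIs 4.5% of 20511 were higher and 8.72% lower, and the median log2 ratio was -0.11. Among genes with a symbol at that level, the 12 highest were ACTA2, CCDC115, PDE5A, MGP, PTPN18, CTSC, INPP4B, GAPDH, TMEM50A, NRG1, ARPC3 and VKORC1, and the 12 lowest S100G, SORCS1, RPL37A, AMOT, STMN2, PLXNA4, NTM, HIVEP2, CCSER1, PKIA, GATA6 and HTR2C.

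ACTA2 was 66.3 CPM at 4 weeks and 279.7 at 8 weeks, 4.22-fold (3.89 to 4.58) higher. In cluster 3 alone its ratio was 2.57 (2.3 to 2.89). ACTA2 also stood higher at 8 weeks in the other barcodes, by the values given above, so it moved with the library. The 12 smooth muscle genes summed to 711 and 1483 CPM in the other barcodes and to 1043 and 1794 in RXFP2 cells. MGP, matrix Gla protein, was 82.4 and 255, 3.09-fold (2.87 to 3.33), and NRG1 92.2 and 243, 2.64-fold (2.46 to 2.83). INPP4B, a phosphoinositide phosphatase, was 129 and 354, 2.74-fold (2.59 to 2.91), and its ratio in cluster 3 was 4.75 (4.22 to 5.36). In the other barcodes of cluster 3 MGP was 161 and 241 CPM, NRG1 94.4 and 190, and INPP4B 169 and 327, also higher at 8 weeks.

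S100G, a calcium-binding protein of epithelia, fell from 108 to 2.59 CPM, 41.6-fold (33.3 to 52.5) lower, and in the other barcodes stood at 626 and 3.1, so it moved with the library. GATA6, a factor of gonadal mesenchyme, was 169.6 and 53.4, 3.17-fold (2.96 to 3.4) lower, and HTR2C 136 and 44.3, 3.07-fold (2.85 to 3.31) lower. RPL37A, a ribosomal protein gene, was 3.91-fold (3.83 to 3.99) lower and GAPDH, the glycolytic enzyme, 2.73-fold (2.65 to 2.81) higher. The other barcodes of cluster 3 moved the same way for these genes. At 4 and then 8 weeks they held RPL37A at 2007.5 and 569 CPM, GAPDH at 530 and 1370, GATA6 at 150 and 56.8, and HTR2C at 168 and 66.0.

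By list, 3 of 21 stroma genes were higher at 8 weeks and 0 lower (LUM, COL3A1 and MSC), 0 of 21 coelomic genes higher and 7 lower (median -0.65), and 2 of 22 gubernaculum genes higher and 5 lower. Smooth muscle genes were higher in 5 of 12 with 0 lower, netrin and guidance genes lower in 8 of 29 with 0 higher, WNT genes higher in 5 of 32 with 2 lower, and HOX genes higher in 1 of 31 with 11 lower. Macrophage markers were higher in 10 of 11 and mesonephric tubule markers lower in 11 of 12, although few RXFP2 cells lay in such clusters. The summed macrophage markers were 34.6 and 107 CPM in RXFP2 cells and 69.0 and 104 in endothelial-like barcodes, and the tubule markers 168 and 49.4 against 57.7 and 25.7, and the part of free RNA in these changes was not tested. RSPO3 was 14.2 and 58.4 CPM, 4.1-fold (3.45 to 4.91), and in cluster 3 the ratio was 5.81 (4.71 to 7.24). DKK2 was 1.04 and 13, 12.5-fold (6.76 to 26.4), and in cluster 3 22.1 (9.36 to 68.8). LHX9 was 265 and 171, a ratio of 0.647 (0.617 to 0.678), and KRT19 263 and 200.4, 0.762 (0.728 to 0.798), neither called.

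**Figure D5:**
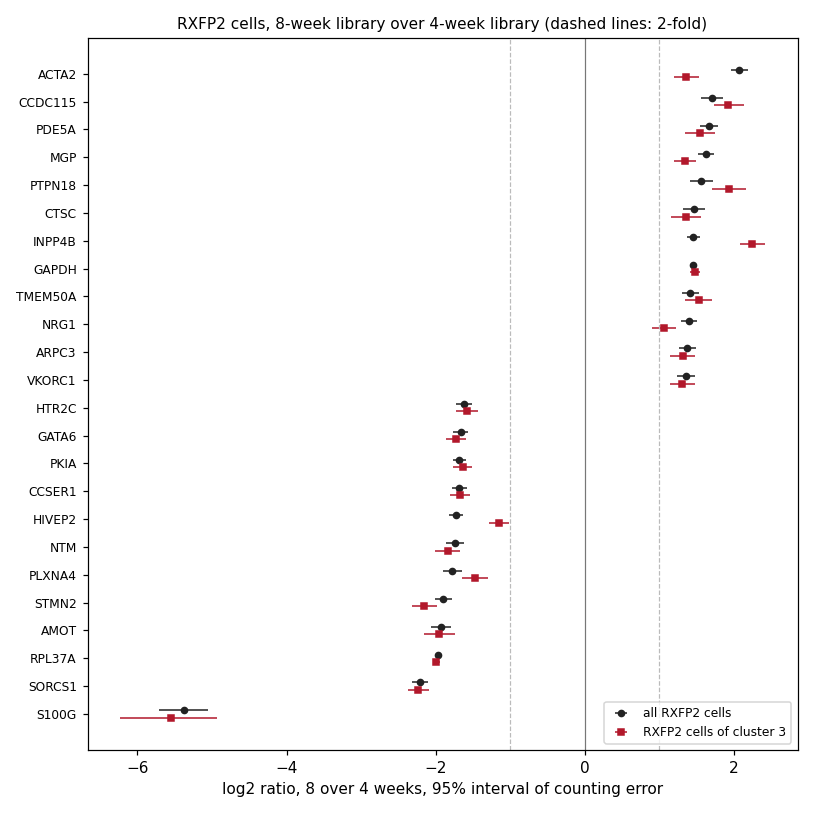
Log2 ratio of RXFP2 cells at 8 weeks over those at 4 weeks (x axis) for the 12 highest and 12 lowest by ratio among called genes with a symbol and at least 100 CPM in the higher group, with 95% intervals of counting error. Black circles are all RXFP2 cells and red squares those of cluster 3. The 2 sets lie on the same side of 0 for each gene, with ACTA2 smaller and INPP4B larger in cluster 3.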

How the data were processed

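Droplet single-cell RNA libraries of 2 fetal donkey samples were analysed, 1 per stage. The deposited files hold UMI counts per gene and barcode, written by Cell Ranger 7.1.0 per the file headers, while the submitters' processing notes name Cell Ranger 2.1.1. The labels name a DNBelab kit. For the build, the annotation and the treatment of intronic reads, which set what counts for long genes, the entry is: not given in the sources used here. The deposited barcodes all hold at least 500 UMIs. Of 38517 features 16536 have a deposited symbol, and 768 others were named from the RefSeq table of gene names (assembly EquAss-T2T_v2).

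RXFP2 cells were taken by the stated rule. The members and the 33 gene lists were chosen with earlier results of these data known. UMIs were summed per group and scaled to 1000000 UMIs (CPM) with exact Poisson intervals, ratios with exact conditional binomial intervals and shares with Clopper-Pearson intervals. The 95% intervals cover counting error only. Log2 ratios had 0.5 UMI added. A gene was called at 2-fold or more with an interval that leaves out 1 and at least 10 UMIs. Where a group had 0 UMIs the limit is 3 counts over the group. The genes named beyond the lists are, per comparison, the 12 with the highest and the 12 with the lowest ratio among called genes with a symbol and at least 100 CPM in the higher group, without the 5 rule genes, which no count of called genes holds. Some of these and some list members are not reported here by name, though list counts include them.

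Clusters were made with scanpy 1.11.5 (Leiden, igraph 0.11.9, resolution 1.0, 28 clusters) from counts scaled to 10000, 2000 variable genes, 30 components and 20 neighbours, without the 5 rule genes and the haemoglobin genes. A cluster took a class name from at least 3 markers and 33.3% of a list, each 2-fold higher with 10 CPM added, with a lead of 10 points over the next list. A doublet caller marked 0 barcodes and so did not work, and removal of the top 6% of scores was tried in its place. The calling was also run on simulated Poisson counts of genes at 100 CPM or more. Of 200 genes changed 3-fold 200 were recovered with 0 false calls, among 2024 genes for the 4-week and 1831 for the 8-week comparison. The simulation had no variation between cells or libraries and no choice of cells by a rule. It therefore checks the calculation only and says nothing on the genes called here. Alternatives changed the UMI minimum, the number of genes asked for, thinning, doublets, the level minimum, the weight of each cell, the comparison group and the resolution. Python 3.11.15, numpy 2.4.6, scipy 1.17.1 and pandas 2.3.3 were used.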

Additional observations from a re-analysis of the deposited data

Results flagged for a closer look

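In the 8-week library 79 of 2599 barcodes under 1500 UMIs (3.04%) met the rest of the rule, a signal outside the barcodes described here.

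For 7 genes described here from the lists the ratio of RXFP2 cells over the other barcodes was called in opposite directions in the 2 libraries. The share of all genes called so at 10 UMIs was not counted, and at 100 CPM or more 0 genes were. Some of the 7 were near 0: in RXFP2 cells of cluster 3 at 8 weeks HOXA10 stood at 0.997 CPM and HOXB5 at 0. ISL1 and SLC12A1 were each at 0.453 CPM there. The differences between the weeks were not tested, since each stage has 1 library. On the log2 scale, at 4 and then 8 weeks, the WNT inhibitor gene DKK2 stood at -1.40 and 1.90. The HOX genes HOXA10, HOXB5 and HOXD10 stood at -2.17 and 1.24, -2.60 and 1.71, and -1.05 and 1.96. ISL1, a LIM homeobox factor, went the other way, at 2.44 and -1.21. PTPRO, a podocyte phosphatase, stood at -2.90 and 1.37, and SLC12A1, a tubule transporter, at -3.06 and 1.09. The other barcodes of the 4-week library include mesonephric clusters that the 8-week library lacks, and their part in these values was not tested.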

How the results depend on the processing

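The share of RXFP2 cells, 6.40% and 13.3%, was 7.08% and 14.2% with at least 3000 UMIs, 4.23% and 7.95% with at least 3 of the 4 genes, and 1.06% and 2.37% with the rule on counts thinned to 1500 UMIs. Without the top 6% of doublet scores the 8-week share was 12.5%. Counting only RXFP2 cells in stroma-like clusters it was 5.39% and 10.3%, and this and the alternatives on stroma-like barcodes, with or without cluster 9, or cluster 3 members alone were chosen after seeing the data. The share of RXFP2 cells in the fullest cluster, 57.3% and 45.8%, was 29.5% and 24.0% at resolution 2.0, and 54.4% at 8 weeks at resolution 0.5.

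The genes called, 342 at 4 weeks, 89 at 8 weeks and 193 between the weeks, numbered 4765 (1667 higher, 3098 lower), 3147 (687, 2460) and 2711 (923, 1788) without the 100 CPM minimum. By direction, the 4-week genes, 227 higher and 115 lower, were 287 and 202 with thinning and 288 and 191 with only RXFP2 cells in stroma-like clusters. Thinning gave 236 at 8 weeks (173 higher, 63 lower), where the unthinned split was 47 and 42. With each cell weighing the same, 93 genes differed between the weeks (56 higher, 37 lower), where the summed counts gave 95 and 98. Only RXFP2 cells in stroma-like clusters gave 159 at 8 weeks (89 higher, 70 lower), and only stroma-like barcodes on both sides gave 73 (56 higher, 17 lower) and 31 (24, 7), or 74 (58, 16) and 37 (35, 2) with cluster 9 added. Against the other barcodes of cluster 3, all RXFP2 cells gave 18 (15 higher, 3 lower) and 13 (13 higher, 0 lower). All other alternatives run kept these counts, and those of each direction, within 1.5 times.

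Setting all RXFP2 cells, of any class, against the other cluster 3 barcodes turned 41 of the named ratios. The sides differed in cluster makeup, and the cause of the turns was not tested. At 4 weeks the log2 ratios became HTR2C -0.30, NCAM2 -0.0094, GRIN2A -0.0063, PCDH15 -0.038, TNNI1 -0.32, COL6A6 -0.060, ABCA9 -0.17, CNTNAP4 -0.065, AFP 1.13, APOC2 0.50 and PLVAP 3.09. The others became TOX 0.36, DCDC2 1.53, KDR 1.97, HBA1 1.00, VAV3 2.15, EGFL7 0.89 and PDZK1IP1 1.58. At 8 weeks they became PCDH15 -0.45, KRT19 -0.66, CDH13 -0.44, NFATC2 -0.17, COL12A1 -0.62, TPD52L1 -0.21, SGCZ -0.35, CCDC80 -0.30, NCAM2 -0.46, CXCL12 -0.34 and GRIN2A -0.15. The lower genes of that week became CCL4 1.84, C1QB 1.94, C1QA 1.83, FABP3 0.61, CST3 0.56, SPP1 1.07, CYP17A1 2.05, APOA1 1.57, CITED1 2.77, AQP8 1.79, CCK 1.20 and B2M 1.21. Cluster 3 barcodes alone on both sides gave plain ratios of HTR2C 1.09, NCAM2 1.34, GRIN2A 1.38, AFP 0.641 and PLVAP 2.45 at 4 weeks. At 8 weeks these were KRT19 1.06, NFATC2 1.42, COL12A1 0.972, CCL4 0.822, CYP17A1 0.787 and CST3 1.05. Among those given, PLVAP, COL12A1 and CST3 stayed turned and the others did not. With only stroma-like barcodes on both sides the 4-week log2 ratios became DCDC2 0.40, KDR 0.55, HBA1 1.03 and VAV3 0.56. The 8-week ones became CCL4 0.062, C1QA 0.11, FABP3 0.11, CST3 0.20, SPP1 0.26, APOA1 0.39, AQP8 0.24 and CCK 0.44. With cluster 9 added they were DCDC2 0.39, KDR 0.60, HBA1 0.91 and VAV3 0.58 at 4 weeks, and C1QA 0.059, FABP3 0.16, CST3 0.23, SPP1 0.25, APOA1 0.34, AQP8 0.19 and CCK 0.37 at 8 weeks. The other named ratios kept their direction under the alternatives run, but often not their size. Over all alternatives, 350 checks of named genes were counted as moved, 64 as reversed and 228 as the same. Of the list results 26 checks were counted as moved and 58 as the same. The median RXFP2 cell held 2 RXFP2 UMIs, so depth limits which cells meet the rule. No paired analysis was possible because each stage has 1 library.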
